A study of Mus musculus with 24 samples.

Results

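Fos, Jun, Egr1 and Atf3 encode transcription factors of the immediate early class, and their transcripts were followed in cultured mouse embryos 1 h after the start of exposure to an activated cyclophosphamide. The genes were selected by symbol: every probe of both value tables whose annotation gave exactly 1 gene symbol, and that symbol was one of these 4, was taken, whatever its values. This gave 4 probes, 1 per gene, among 15360 probes and 4 genes among 6970 named ones. Jun and Atf3 were on the first table and Fos and Egr1 on the second, so no gene was measured on both.

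Each array compared embryos kept in 40 µM 4-hydroperoxycyclophosphamide (4CP), a pre-activated form of the alkylating drug cyclophosphamide, for 1 h at 37 °C with untreated embryos cultured at 37 °C. Nothing in the labels tells the strain or stage of these embryos, how many were pooled for an RNA extract, or whether controls received a vehicle. The 24 two-channel arrays formed 2 tables of 12, each with 3 pairs of slides in which the second slide carried treated and control RNA in exchanged channels, and each slide had 2 deposited records, called its first and second array here. The labels do not say whether the second was another hybridisation or another scan of the same slide, so differences between first and second arrays may be differences between scans. Pairs are numbered 1 to 3 within each table as in the titles. Total RNA of embryos was hybridised, so fewer cells of a type and less RNA per cell cannot be told apart. The values are ratios, with no level for either group, so the marker genes of embryonic tissues cannot be checked for presence.

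Immediate early genes are transcribed within minutes of a growth factor, stress or DNA-damage signal, without new protein synthesis, because the factors that switch them on are already in the cell and are activated by phosphorylation. Fos and Jun dimerise to form AP-1, which binds a short palindromic DNA element. Jun is itself phosphorylated by the JNK stress kinases, encoded by Mapk8 and Mapk9. Egr1 is a zinc finger factor that answers ERK kinases through serum response factor, and Atf3 is an ATF/CREB family factor that accumulates under many cell stresses and mostly represses transcription. Their RNAs are short-lived, so in many cell types they rise and return to baseline within a few hours.

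Upstream stretches of Fos, Jun and Atf3 are shown because they hold short motifs of the kind that CREB, ATF and AP-1 proteins bind. The window of Egr1 is not shown, and whether it holds these motifs is not given here. Each is the 150 bases before the transcription start in RefSeq, on the gene's own strand, build GRCm38.p6, from the intergenic side up to the base before the annotated start: Fos at chr12:85473740-85473889 on the plus strand, Jun at chr4:95052223-95052372 on the minus strand and Atf3 at chr1:191183334-191183483 on the minus strand. Capitals mark matches to 1 of 3 motifs, searched on both strands and chosen after these windows were read.
Fos: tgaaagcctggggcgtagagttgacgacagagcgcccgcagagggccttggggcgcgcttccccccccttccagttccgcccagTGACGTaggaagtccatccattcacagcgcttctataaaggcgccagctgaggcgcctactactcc
Jun: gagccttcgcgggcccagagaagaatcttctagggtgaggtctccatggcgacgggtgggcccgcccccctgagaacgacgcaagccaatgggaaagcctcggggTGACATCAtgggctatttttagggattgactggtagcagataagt
Atf3: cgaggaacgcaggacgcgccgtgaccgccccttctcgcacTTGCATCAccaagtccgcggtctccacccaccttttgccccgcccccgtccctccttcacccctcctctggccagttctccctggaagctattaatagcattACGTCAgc
The motif TGACGT, the core of the cyclic AMP response element bound by CREB and ATF proteins, lay 66 to 61 bases before the start of Fos, and on the opposite strand 8 to 3 bases before the start of Atf3. It occurred in 5.15% of the 32851 windows of the same length in the RefSeq promoter table. The AP-1-like motif TGACATCA lay 45 to 38 bases before the start of Jun and occurred in 2.32% of windows. The motif TTGCATCA, which matches the amino acid response element bound by ATF4 and its partners, lay 110 to 103 bases before the start of Atf3 and occurred in 0.54% of windows. The motifs do not overlap each other in these windows. A match describes the letters only.

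The deposited values are log ratios of both channels, judged from the values themselves, and neither their base nor the channel in the numerator is stated. A difference of 0.3 would be 1.23-fold in base 2 and 1.35-fold in base e. Each array was centred on its median probe. The treatment effect of a slide pair was taken as the value of the slide carrying treated RNA in channel 1, minus that of its exchanged partner, divided by 2. A positive effect stands for a transcript more abundant after 4CP provided that channel 1 was the numerator and that the ratios of exchanged slides were deposited without a change of sign. The sum divided by 2, called the shared part, is what both orientations have in common. It would be the treatment effect if the slides had been turned before deposit. Effects were tested against 0 with limma over all 7680 probes of a table, with p-values adjusted by the Benjamini-Hochberg method and called under 0.05, and n = 3 always means slide pairs. In the titles the pair number follows the word treatment, and the same numbers occur in both tables. The labels do not say whether pairs came from separate cultures, or whether equal numbers in both tables mean the same treatment. The p-values therefore cover only the spread between pairs, which may be technical.

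None of the 4 transcripts passed the test. The share of all probes called was 0.0% in both tables (0 of 7680 in each, with 180 probes (2.34%) of the first table and 401 (5.22%) of the second at an unadjusted limma p under 0.05), so the count of 0 among the 4 genes equals the background. Mean effects over 3 pairs were 0.086 for Fos, 0.060 for Jun, 0.033 for Egr1 and -0.011 for Atf3, in log ratio units. Means were above 0 for 3 of the 4 genes, and for 46.2% of all first-table and 48.4% of all second-table probes. The sign of Atf3 turned under 9 of 15 alternative settings, that of Fos under 4, of Egr1 under 3 and of Jun under 2. These settings include slides not turned, which gives the shared part, and each orientation alone, which mixes the effect with the shared part. In the order of the means no gene stood apart from its neighbour on the same table. Fos minus Egr1 was 0.053 ± 0.239 (SD, n = 3; exact sign-flip permutation test, two-sided p = 1.0), and Jun minus Atf3 was 0.071 ± 0.182 (SD, n = 3; exact sign-flip permutation test, two-sided p = 0.75). With 3 pairs this exact test cannot give a two-sided p below 0.25. Genes on different tables were not tested against each other.

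**Figure D1:**
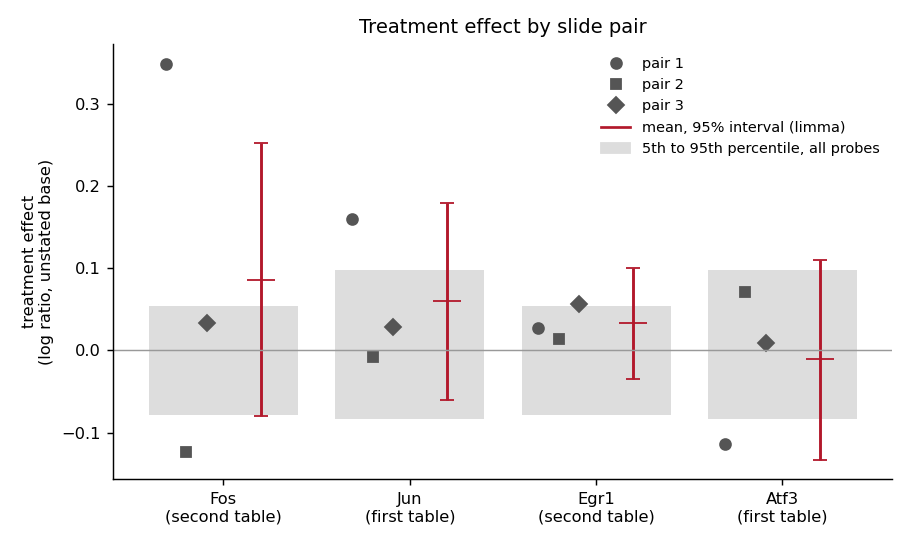
Treatment effect (log ratio of unstated base, vertical axis) of each gene by slide pair, with the mean and its 95% limma interval in red and the 5th to 95th percentile of mean effects of all probes of the same table in grey. All 4 intervals hold 0, and the pairs of Fos are spread widest, from -0.124 to 0.349. The mean of Fos, at 0.086, lies above the grey band, which ends at 0.054 in its table.

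Fos, which encodes the AP-1 subunit that cannot bind DNA without a partner such as Jun, differed most between arrays. In the 6 arrays with treated RNA in channel 1 its centred log ratio had a lowest value of -0.529, a median of 0.365 and a highest value of 1.283, and in the 6 with treated RNA in channel 2 it had -0.048, 0.050 and 0.541. The groups overlapped. In pair 1 the channel 1 arrays stood at 1.283 and 0.158, both above the channel 2 arrays at -0.048 and 0.094, the first array by far and the second by little. In pair 3 they also stood above, at 0.624 and 0.573 against 0.541 and 0.524.

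By pair, the Fos effect came to 0.349, -0.124 and 0.033 in pairs 1, 2 and 3, a mean of 0.086 ± 0.241 (SD, n = 3; limma adjusted p = 0.977). Pair 1 was far above the others, and pair 2 lay on the other side of 0. The SD between pairs was larger than that of 99.1% of probes of the table, whose median SD was 0.049, while the effect in pair 1 exceeded that of 99.8% of probes. The 95% limma interval of the mean ran from -0.080 to 0.252, which is 0.95-fold to 1.19-fold in base 2 and 0.92-fold to 1.29-fold in base e.

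The arrays of a slide disagreed on Fos. From first arrays alone the effects were 0.666, 0.019 and 0.042 in pairs 1, 2 and 3, and from second arrays alone 0.032, -0.268 and 0.024. Their means were 0.242 and -0.071, of opposite sign. The root mean square difference between first and second arrays was 0.402, against a median of 0.076 over all probes, and larger than for 99.0% of them. On the slide of pair 1 with treated RNA in channel 1, the first array exceeded the second by 1.125 for Fos, where the median absolute difference over probes was 0.089 and 17 of 7680 probes, Fos included, differed by as much. Without that first array the Fos effect of pair 1 was 0.068 and the mean over pairs was -0.008 ± 0.102 (SD, n = 3), so its sign turned. In pair 2 the first array again exceeded the second on the slide with treated RNA in channel 1, at 0.001 and -0.529, while the exchanged slide gave -0.038 and 0.006.

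**Figure D2:**
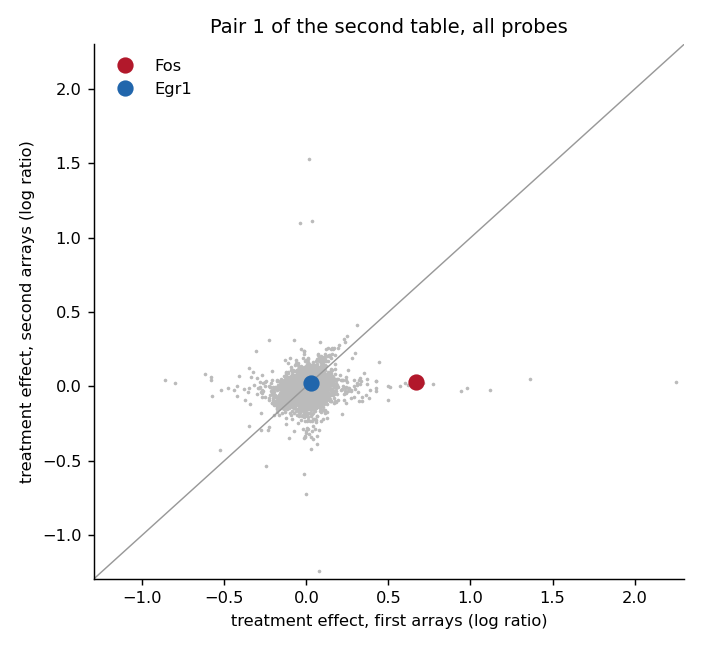
Treatment effect in pair 1 of the second table from first arrays (horizontal axis) and second arrays (vertical axis), in log ratio units, for all 7680 probes in grey, with Fos in red and Egr1 in blue and the line of equality. Fos lies at 0.666 and 0.032, far from the line, and Egr1 at 0.030 and 0.025, near it and near 0. Over all probes shown, Pearson's r between first and second arrays was 0.176.

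Fos passed the threshold under a single alternative. With pair 2 left out, its effect was 0.191 (limma adjusted p = 0.026), in a fit that called 58 probes, 0.755% of the table (0.391% in the same fit of the first table, where neither Jun nor Atf3 passed). That fit had 2 values per probe, and limma drew the spread of each probe strongly toward the common one, with standard errors between 0.0443 and 0.0924 for all probes. The 2 pairs it averaged were 0.349 and 0.033. With pair 1 left out the effect was -0.046, on the other side of 0.

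Jun, the AP-1 subunit that pairs with Fos and activates its own promoter, had centred log ratios with a lowest value of -0.019, a median of 0.164 and a highest value of 0.328 in the 6 arrays with treated RNA in channel 1, and -0.092, 0.051 and 0.157 in the 6 with treated RNA in channel 2. The first group lay higher on the whole, and the groups overlapped. In pair 1 both channel 1 arrays, at 0.328 and 0.262, stood above both channel 2 arrays, at -0.092 and 0.043. In pair 3 they also did, by less, at 0.168 and 0.160 against 0.059 and 0.157, and in pair 2 the orientations overlapped.

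The Jun effect came to 0.160, -0.008 and 0.028 in pairs 1, 2 and 3, with a mean of 0.060 ± 0.088 (SD, n = 3; limma adjusted p = 0.997). Its spread was ordinary for the table, larger than for 55.4% of probes. First arrays gave 0.210, -0.043 and 0.055 and second arrays 0.109, 0.027 and 0.002, so both placed pair 1 highest. Leaving out any 1 of the 12 arrays kept the mean between 0.043 and 0.077. Without pair 1 it was 0.010. The 95% limma interval ran from -0.060 to 0.180, which is 0.96-fold to 1.13-fold in base 2 and 0.94-fold to 1.20-fold in base e.

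Egr1, the zinc finger factor read as an early marker of ERK signalling, had the smallest SD of the 4 between pair effects, though not between arrays. Its centred log ratios had a lowest value of -0.123, a median of 0.190 and a highest value of 0.655 with treated RNA in channel 1, and -0.003, 0.079 and 0.508 with treated RNA in channel 2. The groups overlapped widely, and pair 3 was high in both, with 0.655 and 0.538 against 0.457 and 0.508.

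The Egr1 effect came to 0.027, 0.014 and 0.057 in pairs 1, 2 and 3, with a mean of 0.033 ± 0.022 (SD, n = 3; limma adjusted p = 0.980). It was the only one of the 4 genes with effects above 0 in all 3 pairs, a pattern shown by 9.84% of the probes of its table and 11.4% of the first, and its exact sign-flip p was 0.25, the smallest that 3 pairs allow. Its mean exceeded that of 85.7% of probes. Within their own tables the means of Fos, Jun and Atf3 exceeded those of 98.3%, 85.6% and 44.8% of probes. The agreement held for first arrays, at 0.030, 0.110 and 0.099, and not for second arrays, at 0.025, -0.082 and 0.015. The 95% limma interval, from -0.035 to 0.100, was the narrowest of the 4 and spans 0.98-fold to 1.07-fold in base 2 and 0.97-fold to 1.11-fold in base e.

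Atf3, the stress-induced ATF/CREB factor, had effects on both sides of 0. Its centred log ratios had a lowest value of -0.390, a median of 0.095 and a highest value of 0.584 with treated RNA in channel 1, and -0.498, 0.315 and 0.612 with treated RNA in channel 2. These ranges nearly coincided, and values followed the pair more than the channel: all 4 arrays of pair 2 were below 0, from -0.498 to -0.108, and all 4 of pair 3 were above it, from 0.451 to 0.612.

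The Atf3 effect came to -0.114, 0.071 and 0.009 in pairs 1, 2 and 3, with a mean of -0.011 ± 0.094 (SD, n = 3; limma adjusted p = 0.997). The negative value of pair 1 came from its first arrays, at -0.208, with -0.020 from its second arrays. On the slide with treated RNA in channel 1 the first array gave -0.123 and the second 0.298. Without that first array the mean was 0.024, on the other side of 0, and leaving out any 1 of the 12 arrays gave means from -0.046 to 0.024, of which 4 were above 0. The 95% limma interval ran from -0.133 to 0.110, which is 0.91-fold to 1.08-fold in base 2 and 0.88-fold to 1.12-fold in base e.

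**Figure D3:**
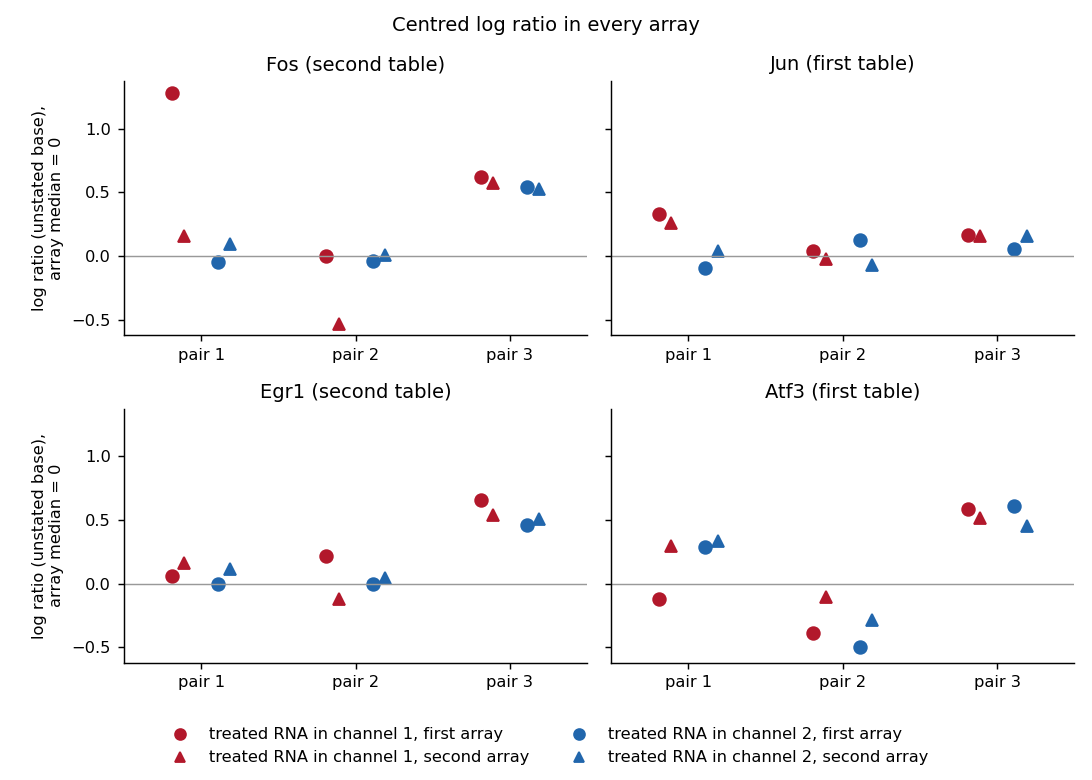
Centred log ratio (vertical axis, array median at 0, unstated base) of each gene in each of its 12 arrays, by slide pair, with treated RNA in channel 1 in red and in channel 2 in blue, first arrays as circles and second arrays as triangles. Red and blue overlap in every panel, Fos has 1 array at 1.283, and pair 3 is high in both colours for Fos, Egr1 and Atf3.

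The part shared by both orientations was, as a mean over pairs, larger than the mean treatment effect for all 4 genes. For Fos it was 0.372, -0.140 and 0.566 in pairs 1, 2 and 3, a mean of 0.266 ± 0.364 (SD, n = 3; limma adjusted p = 0.485). For Egr1 it was 0.084, 0.033 and 0.540, a mean of 0.219 ± 0.279 (SD, n = 3; limma adjusted p = 0.537). For Jun it was 0.135, 0.020 and 0.136, a mean of 0.097 ± 0.067 (SD, n = 3; limma adjusted p = 0.926).

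For Atf3 the shared part was 0.201, -0.319 and 0.541, a mean of 0.141 ± 0.433 (SD, n = 3; limma adjusted p = 0.890). All 4 means were thus positive and none passed, in tables where 2.85% of first-table probes and 0.0% of second-table probes were called on the shared part. In pair 3 of the second table the shared part of Fos exceeded that of 97.7% of probes and that of Egr1 96.9%, whereas in pair 3 of the first table Atf3 exceeded 80.2% and Jun 56.9%. The shared part was also widely spread over all probes of pair 3, with an SD of 0.679 for first-table probes and 0.566 for second-table ones, against 0.241 to 0.355 in the other pairs. So none of the 4 genes passed under either reading of the slide orientation. The fold intervals above hold only if slides were deposited without a change of sign. Limma intervals of the shared part were wider, from -0.132 to 0.664 for Fos and -0.326 to 0.52 for Jun. They ran from -0.144 to 0.581 for Egr1 and -0.302 to 0.584 for Atf3. Over all probes, r between pairs was -0.144 to 0.009 for first-table treatment effects and -0.051 to 0.15 for second-table ones. For the shared part it was 0.158 to 0.747 and 0.099 to 0.875.

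**Figure D4:**
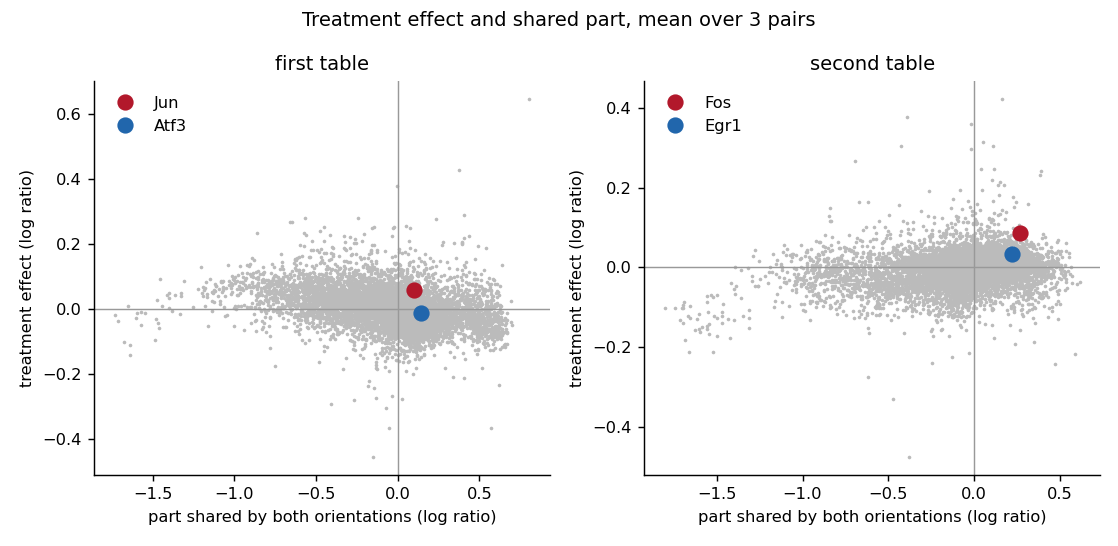
Mean treatment effect (vertical axis) against the mean part shared by both orientations (horizontal axis), each over 3 pairs in log ratio units, for all probes in grey, with Jun and Atf3 marked in the first table and Fos and Egr1 in the second. The 4 genes lie right of 0, at 0.097 to 0.266, and near 0 in height, at -0.011 to 0.086.

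Genes of the same pathways were counted from lists set by symbol, and none passed in either table. The 5 lists do not include the 4 genes themselves. Of AP-1 dimer partners, 2 of 22 listed genes were measured on the first array design and 3 on the other. Atf2, a JNK and p38 substrate, had 0.037 ± 0.035 (SD, n = 3) in the second table, with all 3 pairs above 0. Fosl1 and Fosl2, relatives of Fos, were named after their values were seen, as were Myc and Trib3 further on. Fosl1 had -0.015 ± 0.023 in the first table. Fosl2 had 0.033, -0.965 and -0.058 in pairs 1, 2 and 3 of the second, so that its mean of -0.330 came from pair 2, and there from the second arrays, which gave -2.04 against 0.11 from the first. Of EGR relatives, their NAB corepressors and related zinc finger factors, Sp1, a general activator at GC-rich promoters, had -0.027 ± 0.013 over its 2 first-table probes, below 0 in all pairs, and -0.013 ± 0.040 on its second-table probe.

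Other immediate early genes were measured for 15 of 52 listed genes on the first design and for 9 on the other. Of the 15, 10 were above 0, with a median of 0.019 against 0.001 over all named genes, of which 51.0% were above 0. In all 3 pairs 4 of the 15 were above 0 and 0 below, against 13.4% and 10.2% of named genes. Of the 9, 5 were above 0, with a median of 0.014 against -0.003 over all named genes, of which 46.0% were above 0. In all 3 pairs 3 of the 9 were above 0 and 1 below, against 9.72% and 16.2% of named genes. Id1, an inhibitor of basic helix-loop-helix factors, had 0.166, 0.130 and 0.092 in pairs 1, 2 and 3 of the first table (limma adjusted p = 0.997). Its relative Id3 had 0.175, 0.243 and 0.011 in the second (limma adjusted p = 0.939). Errfi1, which restrains the EGF receptor, had 0.077 ± 0.064 (SD, n = 3), and Btg2, an antiproliferative p53 target, had 0.055 ± 0.069, both above 0 in all pairs of the first table. In the second table Txnip, which binds thioredoxin, had 0.049 ± 0.026, Zfp36l1, an RNA decay factor, 0.034 ± 0.047, and Btg1, a relative of Btg2, -0.031 ± 0.022. Myc, measured on both tables, had 0.004 ± 0.055 and 0.017 ± 0.129.

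**Figure D5:**
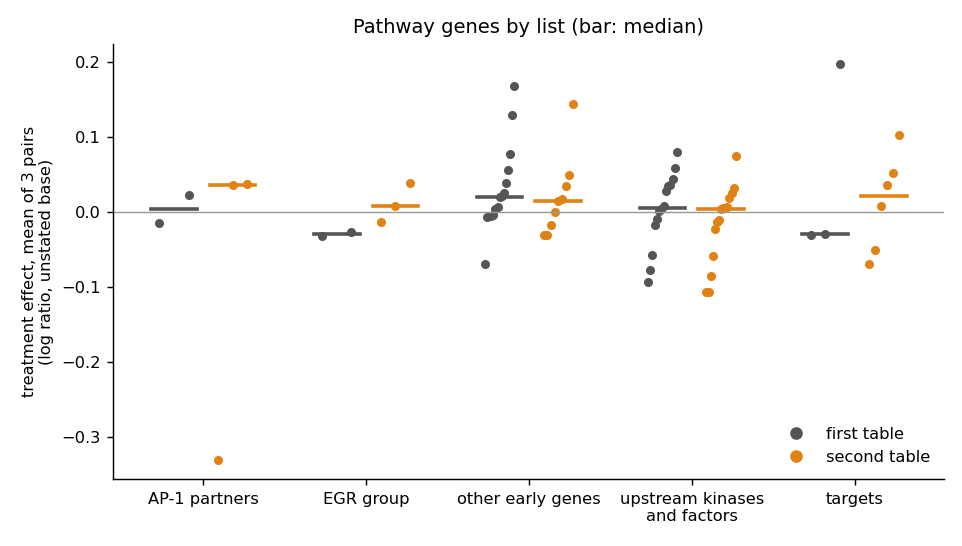
Mean treatment effect over 3 pairs (vertical axis, log ratio of unstated base) of each measured gene of 5 lists, with the first table in grey, the second in orange and the median of each list as a bar. List medians lie between -0.030 and 0.036, and the lowest point, at -0.330, is Fosl2.

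Kinases and factors upstream of these genes were measured for 14 of 52 listed genes on the first design and for 15 on the other, with medians of 0.005 and 0.004, and 9 and 8 of them above 0. Mapk8 and Mapk9, which encode the JNK kinases that phosphorylate Jun, were below 0 in all 3 pairs of the first table, Mapk8 at -0.075, -0.110 and -0.046 and Mapk9 at -0.252, -0.017 and -0.009. Neither passed (limma adjusted p = 0.997), and 11.2% of all probes of that table were below 0 in every pair. Elk4, a cofactor of serum response factor, had -0.058 ± 0.020 (SD, n = 3), while Map3k12 at 0.080 ± 0.090 and Nras at 0.043 ± 0.018 were above 0 in all pairs. On their second-table probes Map3k12 had 0.003, -0.049 and 0.013 and Nras -0.021, -0.005 and 0.045, so neither pattern was repeated.

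In the second table Gsk3b, a kinase that marks Jun for decay, had -0.107 ± 0.036 (SD, n = 3) and Braf, the kinase that opens the ERK cascade, had -0.107 ± 0.074, both below 0 in all 3 pairs, a pattern of 14.7% of probes there. On its first-table probe Gsk3b had 0.035 ± 0.077, with 0.11, -0.043 and 0.039 in pairs 1, 2 and 3. Braf, over its 2 first-table probes, had 0.058 ± 0.156, with -0.026, -0.038 and 0.238. The positive mean of Braf thus came from pair 3, and neither gene was below 0 in all 3 pairs there. Map3k3, an activator of MAP kinase cascades, had 0.074 ± 0.051.

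Known targets of AP-1, EGR1 or ATF3 were measured for 3 of 21 listed genes on the first design and for 6 on the other, with medians of -0.030 and 0.022. Mmp2, a matrix metalloproteinase, had -0.070 ± 0.079 (SD, n = 3) and Fn1, fibronectin, -0.051 ± 0.016, both below 0 in all pairs of the second table. Trib3, an ATF4 pathway gene named after its values were seen, had -0.076, 0.085 and 0.583 in the first table, so its mean of 0.197 came from pair 3. Markers of other cell types of the embryo did not pass either: medians of lists with at least 3 measured genes were -0.038 for yolk sac endoderm (4 of 10) and 0.020 for trophoblast and decidua (5 of 10) in the first table, and -0.054 for primitive erythroid cells (3 of 10) in the second. The other marker lists (leukocytes, neural tube and the rest of these by table) had at most 1 measured gene per table, with effects from -0.012 to 0.054. Their part in the results was not tested.

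The probes whose pattern was most like that of each gene were found by Pearson's r over 6 effects, those of first and of second arrays in 3 pairs, among probes of other named genes of the same table. For Fos they were Iqcb1 (r = 0.994), Oosp3 (r = 0.989) and Atp2b1 (r = 0.986). These r rest mostly on the Fos effects of 0.666 and -0.268, since its other effects lay between 0.019 and 0.042. For Jun they were Atm, Frat2 and H3f3b, with r from 0.989 to 0.995. For Egr1 they were Gsta4, Sft2d2 and Tomm5, with r from 0.986 to 0.993, and for Atf3 Btrc, L3mbtl3 and Tvp23b, with r from 0.990 to 0.994. Pearson's r leaves the mean out, so genes of like pattern need not share the sign of the mean effect. Mean effects ran from 0.029 to 0.043 for the genes like Fos and from -0.004 to 0.028 for those like Jun. For those like Egr1 they ran from -0.061 to 0.035, and for those like Atf3 from -0.124 to -0.01. The points share slides and arrays, and r above 0.9 was reached by 44 probes for Fos, 276 for Jun, 123 for Egr1 and 302 for Atf3.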

How the data were processed

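The deposited tables hold 1 log ratio per probe and array, as judged from the values, whose extremes were -2.60 and 7.71 on one table and -4.33 and 5.96 on the other. Neither the labels nor the table headers tell how the authors made them (log base, numerator channel, dyes, background correction, normalization), and without spot intensities the distance of a probe from background could not be assessed. A log base of 10 would need ratios beyond a 16-bit scanner, whose range has a log10 of 4.82. Deposited array medians ran from -0.305 to 1.116 and from 0.272 to 2.099, and each array was centred on its own. Every probe had a value on every array, and none was filtered out. Arrays of a slide were averaged, and the slide pair was the replicate, as the labels' titles give it.

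Probes were named by the platform annotation, with symbols updated by gene identifier in RefSeq: 4749 first-table probes had 1 symbol, 227 several and 2704 none, and 4935, 275 and 2470 in the second. Tests used limma 3.58.1 in R 4.3.3 (lmFit, eBayes). The fit was also run on data simulated with each probe's own spread between pairs, and those results are not given here. A planned test of genes on both tables could not be run, since no member was on both. In each list and table, up to 3 genes per side with 3 pairs of 1 sign and the largest means were named. The members and lists were chosen with earlier results of these data known. The 3 slide pairs per table limit the precision.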

Additional observations from a re-analysis of the deposited data

Results flagged for a closer look

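In 12 sets of 6 values (for each gene, the arrays of either orientation and the effects by pair and array), the gap between an extreme value and its neighbour was set against the whole range. The limit was 0.625, which chance passes in about 1 in 20 sets of independent, normally distributed values. Values within these sets share slides and the sets share arrays, so that rate need not hold here. For Fos, the 6 effects by pair and array had a ratio of 0.668, because 0.666 from the first arrays of pair 1 stood above 0.042, the next value. For Atf3, the ratio was 0.638, because -0.208 from the first arrays of pair 1 stood below -0.020. These are arrays of different tables, and both were first arrays of a pair numbered 1.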

How the results depend on the processing

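Of 15 alternatives, 2 were chosen after seeing the data (the median over pairs, and leaving out the first array of pair 1 with treated RNA in channel 1). The median over pairs had no test, so it counts for the sign only. None of the others brought Jun, Egr1 or Atf3 past the threshold and 1 brought Fos past it. Adjusted p-values over the alternatives ran from 0.026 to 1.0 for Fos, 0.472 to 1.0 for Jun, 0.473 to 1.0 for Egr1 and 0.178 to 1.0 for Atf3. The mean effect of Atf3 turned to 0.015 with scaled arrays, 0.005 with quantile normalization, 0.033 from second arrays, 0.141 with slides not turned, 0.130 from treated RNA in channel 1 only, 0.011 with the loess trend removed, 0.009 as the median over pairs and 0.024 without the first array named above, which turned Fos to -0.008. Second arrays also turned Fos to -0.071 and Egr1 to -0.014. Treated RNA in channel 2 only turned Fos to -0.180, Jun to -0.037 and Egr1 to -0.186. Values as deposited, without centring, turned Jun to -0.064 and Egr1 to -0.020, where the median over all probes shifted to -0.128 in the first table and -0.054 in the other. By construction, the value with slides not turned is the shared part itself. That from treated RNA in channel 1 only is the effect plus the shared part, and that from channel 2 only is the effect minus it. The cause of the other turns was not tested. Leaving out 1 pair at a time gave -0.046 to 0.191 for Fos, 0.010 to 0.094 for Jun, 0.020 to 0.042 for Egr1 and -0.052 to 0.040 for Atf3. Counts of called probes, 0 in both tables as reported, rose in the first to 33 as deposited, 219 with slides not turned, 174 and 668 with treated RNA in channel 1 or 2 only, and 24 to 30 without 1 pair. In the second they were 1 as deposited and 0 to 58 without 1 pair. In 3 of the 6 fits on 2 pairs limma gave all probes 1 shared standard error. The same held for values as deposited in both tables, and for treated RNA in channel 1 only in the first. Without the replicate block, that is with slides not paired, the effects were the same (0.086 for Fos, 0.060 for Jun, 0.033 for Egr1, -0.011 for Atf3), each adjusted p was 1.0 and 0 probes were called. Averaging the probes of a gene, also planned, was not run, since each gene had 1 probe.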
